A study of Rattus norvegicus with 32 samples.

Results

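The comparison described here is that of formerly iron-deficient female rats whose dams received prenatal choline (FIDch) with formerly iron-deficient female rats without it (FID), in the adult hippocampus and across all genes. It was defined by the diet, sex and batch labels, not by measured values, though earlier results of these data were known. It rests on 8 of the 32 samples of the series, with 4 rats per group. All 8 rats were Sprague-Dawley females of 65 days, their tissue was labelled hippocampus, and their libraries belonged to sequencing batch II. Both groups had the iron-deficient diet of early life, which the labels call ID, and differed in choline, which the labels add as IDch. The study's methods, written for the males, give 4 mg iron/kg for the iron-deficient diet of the dams, fed from G2 to P7, and 200 mg/kg for the iron-sufficient diet that followed. The same methods give 5.0 g/kg choline for supplemented dams from G11 to G18, against 1.1 g/kg in the standard diet. For comparison, 4 further groups of 4 rats were used, namely iron-sufficient females without (IS) and with choline (ISch), and FID and FIDch males. The sources used here do not say which litters the females came from, so the p-values measure the spread between the rats sequenced, whatever their litters, and males were sequenced in batch I, so that sex and batch cannot be told apart.

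The hippocampus serves memory and spatial learning through a circuit of fields, from the granule cells of the dentate gyrus through the pyramidal cells of CA3 and CA1 to the subiculum. Choline is a building block of phosphatidylcholine, the precursor of the transmitter acetylcholine and, after its oxidation to betaine, a donor of methyl groups. Iron is needed by the developing hippocampus for energy production, myelin and enzymes that use it as a cofactor.

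The 8 libraries held between 19109501 and 26616318 gene counts (median 23508897), so that a value of 1 CPM, the unit of counts scaled to the library's total, stood for 19.1 to 26.6 counts. One library stood apart from the others. The correlation of log CPM between FIDch replicate 4 and the other FIDch libraries was 0.9872 to 0.9882, against 0.9921 to 0.9935 among these 3, and 0.992 to 0.9936 among the FID libraries. On the first principal component, which held 29.4% of the variance, the FID libraries lay between -17 and -10.3 and the FIDch libraries between 8.6 and 24.3. The second component, with 20.4%, set FIDch replicate 4 at -23.7 against 12 to 13.6 in the other FIDch libraries. Counts below are therefore given with and without this library where they lead a result.

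The study called a gene changed at an unadjusted p under 0.05 with a log2 fold change beyond 0.2 in either direction, and 1859 of the 14680 genes tested here (12.7%) met this criterion. Of these, 821 (5.59%) were higher and 1038 (7.07%) lower in FIDch than in FID, and with library size alone as the scaling the split was 1063 higher and 865 lower. With edgeR's quasi-likelihood p-values adjusted over all these genes by the Benjamini-Hochberg method, 334 (2.28%) stayed under 0.05, 127 (0.865%) of them higher and 207 (1.41%) lower, and with library size alone as the scaling 150 were higher and 162 lower. In what follows, only these 334 are called changed in this comparison, and only they "rose" or "fell". For the other comparisons the same words stand for an adjusted p under 0.05 there. Without FIDch replicate 4, 1978 genes (13.3%) met the criterion, 892 (6%) as higher and 1086 (7.3%) as lower. An adjusted p under 0.05 was then reached by 775 genes (5.21%), 300 (2.02%) higher and 475 (3.19%) lower, among them 333 of the 334. Most changes were small, with a median absolute log2 fold change of 0.487 over the changed genes, 179 under 0.5 and 63 over 1. The 4 FIDch values lay wholly apart from the 4 FID values in 330 of the 334, and in 1751 (11.9%) of all genes tested. Over all genes the median log2 fold change was -0.00131.

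**Figure D1:**
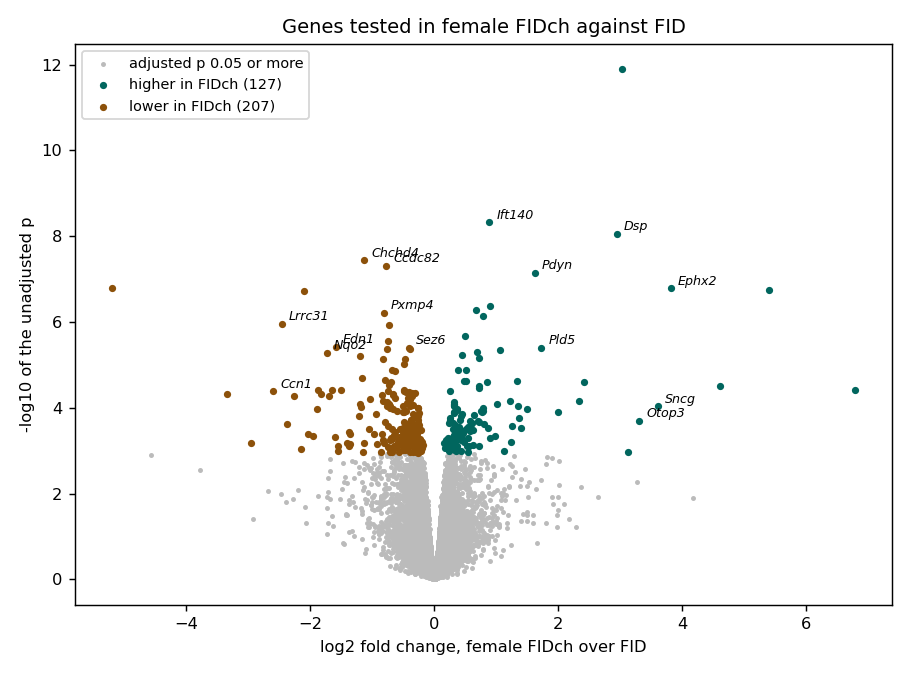
Each point is 1 of the 14680 genes tested in female FIDch compared to FID, with the log2 fold change on the x axis and -log10 of the unadjusted p on the y axis. Coloured points mark the 127 genes that rose and the 207 that fell at an adjusted p under 0.05, and the labelled genes are the leading ones in each direction.

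The genes with the smallest p-values among those that rose belonged to several functions. Ift140, a part of the retrograde intraflagellar transport complex of cilia, was at 36.3, 36.0, 35.5 and 35.9 CPM in the FID libraries and at 67.4, 67.0, 70.7 and 61.0 CPM in the FIDch libraries. The groups were far apart and the FID values nearly equal, and the log2 fold change was 0.89 ± 0.054 (SE; n = 4 per group; edgeR adjusted p = 3.5e-05). Its neighbour Tmem204, which overlaps Ift140 in RefSeq's annotation, fell by 0.67 (adjusted p = 0.011). The library kit does not mark strand, so reads of their shared stretch cannot be told apart. Further named genes with an overlap are listed with the processing of the data.

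Dsp encodes desmoplakin, a protein that anchors intermediate filaments at cell junctions and marks granule cells of the dentate gyrus. Its level was 1.70, 1.83, 1.37 and 1.85 CPM in FID and 10.1, 10.9, 16.1 and 15.6 CPM in FIDch. Every FIDch value was several-fold above every FID value, with a log2 fold change of 2.95 ± 0.19 (adjusted p = 4.3e-05). Pdyn, which encodes the precursor of the dynorphin opioid peptides and is also expressed by granule cells, was at 55.2, 61.4, 67.7 and 54.5 CPM in FID and at 199, 156, 231 and 152 CPM in FIDch. The groups did not overlap, and Pdyn rose by 1.62 ± 0.13 on the log2 scale (adjusted p = 0.00018).

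The promoters of Dsp and Pdyn, which rose, and of Chchd4, which fell, are shown as those of 3 leading genes, from RefSeq's promoter table. Each runs from 250 bases before the start of transcription to 50 bases from it on, 5′ to 3′ in the direction of the gene, in assembly GRCr8, and all 3 genes are on the minus strand. Pdyn is at chr3:137366454-137366753, Dsp at chr17:26877072-26877371 and Chchd4 at chr4:125534513-125534812. Capitals mark the motif matches found in them, an inverted CCAAT box in Pdyn, Sp1 boxes in Dsp and an NRF1 site in Chchd4.
Pdyn: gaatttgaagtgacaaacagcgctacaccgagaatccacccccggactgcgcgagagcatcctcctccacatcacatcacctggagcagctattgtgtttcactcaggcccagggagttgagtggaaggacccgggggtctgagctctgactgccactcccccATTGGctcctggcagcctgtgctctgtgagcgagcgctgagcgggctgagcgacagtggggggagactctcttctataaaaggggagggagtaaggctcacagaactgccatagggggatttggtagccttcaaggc
Dsp: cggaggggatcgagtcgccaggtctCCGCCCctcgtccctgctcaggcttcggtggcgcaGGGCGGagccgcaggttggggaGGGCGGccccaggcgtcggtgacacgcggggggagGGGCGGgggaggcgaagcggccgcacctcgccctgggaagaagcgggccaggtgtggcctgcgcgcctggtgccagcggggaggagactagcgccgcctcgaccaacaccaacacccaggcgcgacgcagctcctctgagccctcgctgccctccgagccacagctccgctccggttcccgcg
Chchd4: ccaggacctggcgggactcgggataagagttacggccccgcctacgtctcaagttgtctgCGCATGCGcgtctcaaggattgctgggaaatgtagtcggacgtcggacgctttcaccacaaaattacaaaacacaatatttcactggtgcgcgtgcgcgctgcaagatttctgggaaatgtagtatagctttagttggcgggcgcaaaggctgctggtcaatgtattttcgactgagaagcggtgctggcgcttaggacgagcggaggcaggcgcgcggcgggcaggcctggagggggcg
The 6 motifs searched, on both strands, were CACGTG (E-box), TGACGTCA (CRE), TGAGTCA (AP-1), GGGCGG (Sp1), CGCATGCG (NRF1) and CCAAT, none of which contains another. The match in Pdyn began 87 bases before the start, the 4 in Dsp 225, 190, 168 and 133 bases before it, and the 1 in Chchd4 190 bases before it. Among all 27457 promoters of the table, 37.7% held CCAAT, 34.9% GGGCGG and 1.81% CGCATGCG. Among the promoters of tested genes these shares were 37.2%, 62.0% and 3.44%. CCAAT was in 39.1% of the 92 promoters of genes that rose and in 26.7% of the 135 of genes that fell, GGGCGG in 56.5% and 59.3%, and CGCATGCG in 3.26% and 0.741%. CACGTG, TGACGTCA and TGAGTCA were in 6.65%, 1.91% and 4.53% of all promoters and in none of the 3 shown. A match describes letters in these windows and was not tested as a site.

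Next among the leading genes that rose were 5 enzymes. Ephx2, soluble epoxide hydrolase, which opens epoxides of fatty acids, was at 0.974, 1.05, 1.42 and 1.33 CPM in FID and at 18.3, 20.2, 7.54 and 21.3 CPM in FIDch. FIDch replicate 3 was the lowest of its group and still above every FID library, and the log2 fold change was 3.82 ± 0.33 (adjusted p = 0.00028). Gsta4, a glutathione transferase that detoxifies products of lipid peroxidation, was at 7.74 to 8.34 CPM in FID and at 13.8 to 15.9 CPM in FIDch (0.89 ± 0.085, adjusted p = 0.00058). Prdx6, a peroxiredoxin that also acts on oxidized phospholipids, rose from 149, 153, 158 and 163 CPM to 230, 195, 216 and 212 CPM, a log2 change of 0.45 ± 0.056 (adjusted p = 0.0032). Prodh1, the mitochondrial enzyme that starts proline breakdown, was at 32.6 to 37.3 CPM in FID and at 48.7 to 51.2 CPM in FIDch (0.50 ± 0.055, adjusted p = 0.0018). Bphl, a serine hydrolase, rose from between 5.33 and 7.71 CPM to between 12.1 and 14.9 CPM (1.07 ± 0.13, adjusted p = 0.0028). None of these enzymes had a FIDch value within the FID range.

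Among the other leading genes that rose, Rnd3, a small GTPase that loosens actin fibres, went from 15.4 to 17.4 CPM in FID to 25.2 to 27.8 CPM in FIDch (0.68 ± 0.066, adjusted p = 0.00063). Snrpc, a protein of the U1 splicing particle, was at 9.41 to 10.6 CPM and at 16.3 to 18.7 CPM (0.79 ± 0.079, adjusted p = 0.00074). Pld5, a phospholipase D family member without known catalytic activity, was at 2.11 to 2.40 CPM and at 5.19 to 9.14 CPM (1.73 ± 0.20, adjusted p = 0.0027). Slc29a4, a plasma membrane monoamine transporter, rose from 14.2 to 17.6 CPM to 24.3 to 27.8 CPM (0.69 ± 0.084, adjusted p = 0.0030). In each of the 4 genes, the groups were apart.

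**Figure D2:**
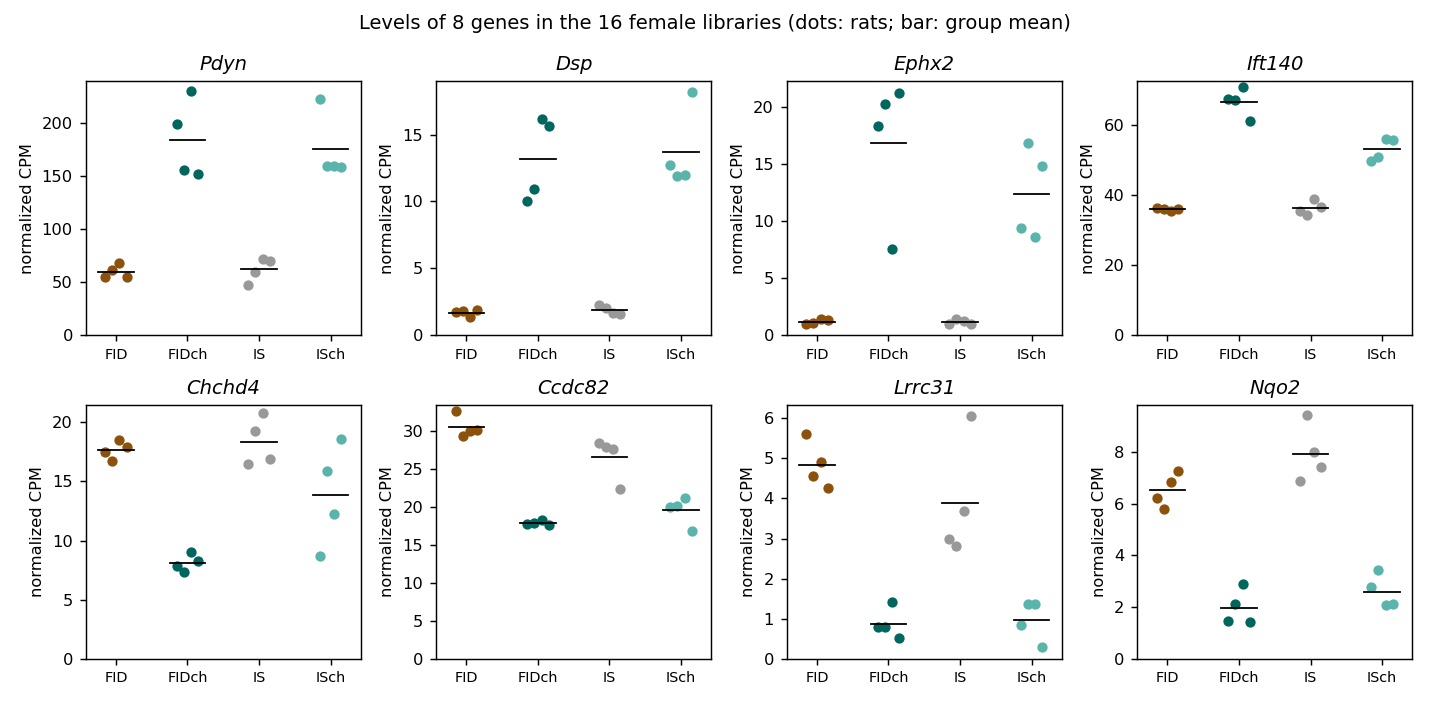
Normalized CPM on y axes that start at 0 for 8 leading genes in the 16 female libraries, with 1 dot per rat and a bar at each group mean, for the groups FID, FIDch, IS and ISch. In Ift140, Dsp, Pdyn and Ephx2 every FIDch point lies above every FID point, and in Chchd4, Ccdc82, Lrrc31 and Nqo2 every FIDch point lies below every FID point.

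The largest increases came from genes of low or uneven level. Sncg, gamma-synuclein, was at 3.61, 5.18, 4.42 and 3.06 CPM in FID and at 39.8, 71.0, 77.9 and 6.85 CPM in FIDch. FIDch replicate 4 was near the FID range and the other FIDch libraries were far above it, and the log2 fold change was 3.6 ± 0.60 with this library and 3.97 without it (adjusted p = 0.015 and 3.9e-06). Otop3, a proton channel, went from 0.322 to 0.948 CPM to 1.20 to 10.5 CPM (3.31 ± 0.61, adjusted p = 0.022). Ube2b, a ubiquitin-conjugating enzyme, was at 2.64, 1.05, 0.526 and 1.57 CPM in FID and at 2.75, 5.83, 31.5 and 12.9 CPM in FIDch, so that its change of 3.13 ± 0.71 (adjusted p = 0.048) came mainly from FIDch replicates 3 and 4. Rplp2, a ribosomal stalk protein, did not pass the test (2.65 ± 0.88, adjusted p = 0.15) and was at 23.1 CPM in FIDch replicate 3 and at 0.967 to 2.14 CPM in the other 7 libraries. Ube2b overlaps another gene in RefSeq's annotation, and Rplp2 and Ube2b may share reads with near-identical copies elsewhere, so their values are uncertain.

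Chchd4 led the genes that fell. It encodes the mitochondrial import receptor MIA40, which folds proteins with paired cysteines in the intermembrane space. Its level was 17.5, 16.7, 18.5 and 17.9 CPM in FID and 7.89, 7.37, 9.002 and 8.24 CPM in FIDch. The FIDch values were all less than those of FID by a wide margin, and Chchd4 fell by 1.13 ± 0.084 on the log2 scale (adjusted p = 0.00013). Ccdc82, a coiled-coil protein, was at 32.6, 29.3, 30.0 and 30.1 CPM in FID and at 17.7, 17.9, 18.3 and 17.6 CPM in FIDch, nearly constant within each group, and fell by 0.77 ± 0.059 (adjusted p = 0.00014). It overlaps Maml2 in RefSeq's annotation. Pxmp4, a peroxisomal membrane protein, fell from 15.1 to 17.6 CPM to 9.11 to 9.62 CPM (-0.82 ± 0.080, adjusted p = 0.0007). Ybx1-ps3, listed as a pseudogene of a Y-box protein, went from 4.32 to 5.60 CPM to 0.864 to 1.42 CPM (-2.1 ± 0.18, adjusted p = 0.00028), a value that may hold reads of its parent gene.

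Among the genes that fell were Edn1, Ccn1, Fbln2, Lum and Fn1, which are known from vessels, connective tissue or the extracellular matrix. Edn1, endothelin-1, a peptide that constricts vessels, was at 5.92, 5.91, 6.27 and 4.84 CPM in FID and at 2.002, 2.14, 1.24 and 2.22 CPM in FIDch. No value of FIDch came near the FID range, and the log2 fold change was -1.59 ± 0.19 (adjusted p = 0.0027). Ccn1, a matrix protein induced in vessels and by growth factors, was at 12.5, 14.6, 6.003 and 5.60 CPM and at 1.099, 0.902, 2.71 and 1.76 CPM (-2.60 ± 0.40, adjusted p = 0.011). Its FID values fell into a higher and a lower pair, both above FIDch. Fbln2, fibulin-2 of basement membranes, went from 40.7 to 46.5 CPM to 24.5 to 30.0 CPM (-0.74 ± 0.077, adjusted p = 0.0011). Lum, the proteoglycan lumican of fibroblasts and meninges, went from 8.85 to 13.5 CPM to 2.13 to 5.01 CPM (-1.50 ± 0.23, adjusted p = 0.011). Fn1, fibronectin, was at 60.7, 62.6, 68.3 and 40.1 CPM and at 41.9, 34.5, 35.1 and 32.6 CPM, with 1 FID library inside the FIDch range (-0.68 ± 0.14, adjusted p = 0.034). The list of extracellular matrix genes holds Fn1 but not Edn1, Ccn1, Fbln2 or Lum. Of its 34 tested genes, 4 met the criterion as higher and 5 as lower, beside 5.59% and 7.07% of all genes tested. The list's median log2 fold change was -0.051. In this list 2 rose and 1 fell, so that it held changes in both directions. Its counts with an adjusted p under 0.05 were 3 higher and 2 lower without FIDch replicate 4, with a median of -0.015. Tnc (tenascin C, 0.55 ± 0.10, adjusted p = 0.026) and Sparcl1 (hevin, made by astrocytes, 0.15 ± 0.033, adjusted p = 0.038) were those that rose. Of 10 endothelial and pericyte markers, 1 met the criterion (0 without FIDch replicate 4) and none changed, and of 9 markers of meninges and fibroblasts Lum alone changed.

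Lrrc31, a leucine-rich repeat protein, fell from 4.27 to 5.60 CPM to 0.509 to 1.42 CPM (-2.46 ± 0.26, adjusted p = 0.0011). Sez6, a neuronal membrane protein that shapes dendrites and excitatory synapses, was at 501, 473, 491 and 466 CPM in FID and at 357, 360, 350 and 392 CPM in FIDch (-0.41 ± 0.048, adjusted p = 0.0027). Ephb6, an ephrin receptor without kinase activity, went from 111 to 120 CPM to 85.6 to 92.3 CPM (-0.39 ± 0.047, adjusted p = 0.0027). All 3 were lower in every FIDch library than in every FID library. Atp2a3, a calcium pump of the endoplasmic reticulum, went from 6.54 to 10.02 CPM to 3.26 to 4.21 CPM (-1.20 ± 0.15, adjusted p = 0.0033), and Fgf11, an intracellular fibroblast growth factor homologue that binds sodium channels, from 34.9 to 39.1 CPM to 25.4 to 28.9 CPM (-0.47 ± 0.060, adjusted p = 0.0034). Named for the size of their decrease, 3 more genes lay at low levels in both groups, the histone gene Hist2h2aa2 (-2.26 ± 0.36, adjusted p = 0.012), the sodium/proton exchanger Slc9b1 (-2.15 ± 0.48, adjusted p = 0.044) and the interleukin receptor Il17rb (-2.04 ± 0.41, adjusted p = 0.031). Hist2h2aa2 has near-identical copies, and Slc9b1 and Il17rb overlap other genes in RefSeq's annotation.

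Nqo2, a quinone reductase, was at 6.21, 5.80, 6.84 and 7.25 CPM in FID and at 1.45, 2.105, 2.88 and 1.44 CPM in FIDch, and fell by 1.73 ± 0.21 (adjusted p = 0.0030). It lies on chromosome 17 near Bphl and on the same chromosome as Dsp. The stretch from Dsp to Nqo2, with 24 tested genes in RefSeq, was drawn around Dsp, Bphl, Serpinb6a and Nqo2 after they were seen to change. Of the 24, 5 changed, Dsp, Bphl and Nrn1 (0.23 ± 0.053, adjusted p = 0.046) with an increase and Serpinb6a (-0.49 ± 0.074, adjusted p = 0.011) and Nqo2 with a decrease. Only Nrn1 was thus not fixed by the choice of the stretch, and over all genes tested 2.28% changed. Nqo2 and Serpinb6a overlap each other in RefSeq's annotation. Over the genome, 12871 of the tested genes were matched to RefSeq, and 22 of 292 changed genes (7.53%) had a changed gene next to them, against 4.42% of all matched genes.

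Markers of hippocampal fields were compared next, as lists of genes known for each field. Counts at the criterion in these and the following marker lists stand beside 5.59% of all genes tested as higher and 7.07% as lower. In bulk tissue, fewer cells of a type and less RNA per cell cannot be told apart. Of 7 tested granule cell markers of the dentate gyrus, 4 met the criterion as higher and none as lower, and Dsp and Prox1 rose. The list's median log2 fold change was 0.286, against -0.00131 over all genes, and 0.272 without FIDch replicate 4. Prox1, the transcription factor that sets granule cell identity, was at 120, 116, 116 and 116 CPM in FID and at 161, 148, 161 and 142 CPM in FIDch, clear of each other (0.39 ± 0.052, adjusted p = 0.0056). Stxbp6, which binds SNARE proteins, had a log2 fold change of 0.29 ± 0.074 and did not pass (adjusted p = 0.076).

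For CA1 the picture depended on 1 library. The 7 CA1 pyramidal markers summed to 905, 938, 956 and 913 CPM in FID and to 707, 759, 551 and 1190 CPM in FIDch. The first 3 FIDch libraries were thus below all FID libraries and FIDch replicate 4 above them. Ndst4, a heparan sulfate enzyme, was the member that fell, with 25.6, 31.7, 24.4 and 31.6 CPM in FID and 9.30, 14.2, 10.9 and 20.3 CPM in FIDch (-1.06 ± 0.20, adjusted p = 0.027). Without FIDch replicate 4, 5 of the 7 met the criterion as lower and 4 passed the test as lower, and the median moved from -0.208 to -0.463. The transcription factor Pou3f1, at 38.0 to 48.6 CPM in FID, was at 24.1, 27.5, 20.04 and 55.7 CPM in FIDch, and its log2 fold change moved from -0.45 (adjusted p = 0.40) to -0.85 (adjusted p = 0.0013) without that library. The 9 markers of CA2 and CA3 summed to 899 to 1020 CPM in FID and to 982, 1020, 973 and 646 CPM in FIDch, where FIDch replicate 4 was the low one. Among them Pcp4, a calmodulin-binding protein of CA2, rose (0.26 ± 0.047, adjusted p = 0.022), and without FIDch replicate 4 the list had 4 at the criterion as higher and 1 as lower, against 2 and 0 with it. The part that the dissected share of each field had in these results was not tested.

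**Figure D3:**
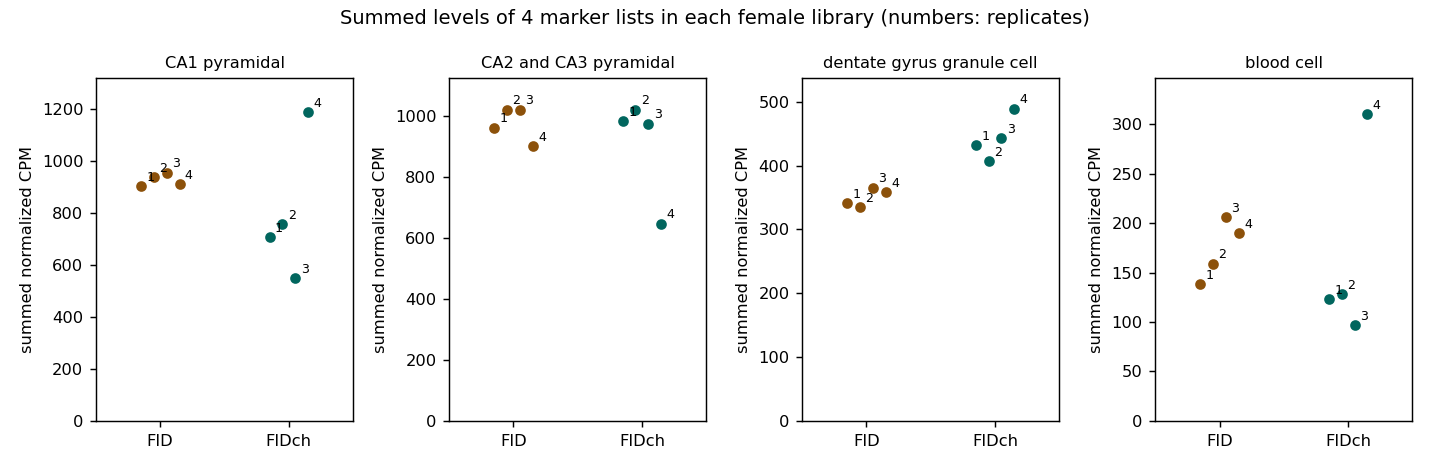
Summed normalized CPM (y axis, from 0) of the CA1, CA2 and CA3, dentate gyrus and blood marker lists in female FID and FIDch, with 1 point per library and its replicate number. The dentate gyrus sum is 335 to 365 CPM in FID and 407 to 489 CPM in FIDch, and FIDch replicate 4 lies high in CA1 and blood markers and low in CA2 and CA3 markers.

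Of 8 tested markers of the subiculum and neighbouring cortex, 3 met the criterion, all lower, and Fn1 and Tshz2 fell, with a median of -0.114. When FIDch replicate 4 was left out, 1 more met it as higher and passed the test. With library size alone as the scaling 1 met it as higher and 1 passed the test as lower. The markers' sum was 217 to 236 CPM in FID and 180 to 200 CPM in FIDch, with no overlap, as in 11.9% of all single genes tested. Fn1 and Tshz2 are part of this sum and made up most of its difference. Lamp5 and Gpr101 had positive log2 fold changes (0.20 and 0.08) and Cux2, Nts, Rorb and Cyp26b1 negative ones, and none of these changed. Tshz2, a zinc finger factor, was at 33.8, 21.6, 18.6 and 23.4 CPM in FID and at 14.5, 14.5, 12.8 and 16.6 CPM in FIDch (-0.75 ± 0.16, adjusted p = 0.041). From the excitatory neuron markers, Slc17a6, the glutamate transporter VGLUT2, was at 24.7, 24.1, 20.8 and 27.7 CPM and at 14.2, 13.2, 14.0 and 18.4 CPM (-0.71 ± 0.12, adjusted p = 0.015), and the cortical factor Tbr1 at 18.5 to 22.5 CPM and at 14.0 to 16.2 CPM (-0.44 ± 0.088, adjusted p = 0.029). Both were lower in every FIDch library. Slc17a7, the transporter VGLUT1 of most hippocampal pyramidal cells, had a log2 fold change of -0.03 (adjusted p = 0.80). The granule cell, CA1 and CA2/CA3 lists were present in every library, at sums of at least 335, 551 and 646 CPM, as the label hippocampus asks.

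In glia, 2 of 12 astrocyte markers rose, the water channel Aqp4 (0.30 ± 0.056, adjusted p = 0.024) and the folate enzyme Aldh1l1 (0.36 ± 0.074, adjusted p = 0.035), and the list's median was 0.06 (3 passed without FIDch replicate 4). None of 11 microglial markers changed, 2 met the criterion as lower, and the median was -0.159. The fractalkine receptor Cx3cr1 was at 21.9 to 25.6 CPM in FID and at 16.9 to 21.7 CPM in FIDch (-0.32 ± 0.090, adjusted p = 0.093). Of 7 markers of oligodendrocyte precursors 3 met the criterion as lower and none changed (median -0.198, and 1 passed without FIDch replicate 4), and of 14 markers of mature oligodendrocytes 2 met it as higher and none changed, while without that library 2 met it in each direction and 1 passed as higher. Among 11 interneuron markers Slc32a1, the vesicular GABA transporter, fell by 0.25 ± 0.055 (adjusted p = 0.043), while the median was -0.086, and -0.023 without FIDch replicate 4, with 4 at the criterion as lower and 1 as higher. Slc32a1 lost its call with library size alone as the scaling.

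Choroid plexus markers were low in most libraries. They summed to 6.25, 6.75, 20.2 and 8.38 CPM in FID and to 5.37 to 7.46 CPM in FIDch, so FID replicate 3 was the high one through Ttr, transthyretin, at 14.5 CPM. Blood markers, mainly globins, summed to 138 to 206 CPM in FID and to 123, 128, 96.9 and 310 CPM in FIDch. None of the 4 blood entries changed, and without FIDch replicate 4 all 4 met the criterion as lower. Hbb, the beta globin, was at 26.3, 31.4, 25.1 and 66.1 CPM in FIDch. The part of blood left in the tissue was not tested.

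Lists of neuronal receptors and channels are given beside the 7.07% of all genes tested that met the criterion as lower (7.3% without FIDch replicate 4). Of 11 metabotropic glutamate receptors and their Homer scaffolds, 4 met the criterion, all lower, with a median of -0.18. With FIDch replicate 4 left out, 3 met it as lower and 1 as higher, which also passed the test, with a median of -0.105, and with library size alone the counts were likewise 3 and 1. Grm8, a presynaptic receptor that restrains glutamate release, was at 10.4, 8.00, 5.69 and 8.02 CPM in FID and at 2.94, 3.46, 2.66 and 4.82 CPM in FIDch (-1.22 ± 0.22, adjusted p = 0.019). Grm4, of the same receptor group, was at 9.46 to 13.5 CPM and at 5.97 to 7.52 CPM (-0.77 ± 0.12, adjusted p = 0.014). The groups did not overlap in either gene. Of 17 subunits of AMPA, NMDA and kainate receptors 3 met the criterion as lower and none changed (median -0.12, and 1 passed without FIDch replicate 4), with Grin3a, an NMDA receptor subunit, at -0.66 ± 0.18 (adjusted p = 0.087). Of 16 GABA receptor subunits 3 met it as lower and none changed (median -0.103). Of these 16, 1 met it as lower without FIDch replicate 4, and with library size alone 1 met it in each direction.

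Of 23 voltage-gated calcium and sodium channel genes 6 met the criterion as lower, none as higher, and 2 fell. These were Cacna2d2, an auxiliary calcium channel subunit, at 45.6 to 51.1 CPM in FID and 37.1 to 39.0 CPM in FIDch (-0.35 ± 0.054, adjusted p = 0.011), and Cacna1g, a pore-forming subunit of T-type channels, at 83.5 to 96.8 CPM and 64.6 to 79.3 CPM (-0.33 ± 0.068, adjusted p = 0.033). The list's median was -0.165, and -0.077 without FIDch replicate 4, with 4 lower and 1 higher at the criterion. Of 39 potassium channel genes 8 met the criterion as lower and none as higher (median -0.119), and without that library 9 did as lower and 3 as higher (median -0.041), of which 6 and 2 had an adjusted p under 0.05, against 2 and 0 with it. Among them Kcnk3, a leak channel, fell by 0.50 ± 0.10 (adjusted p = 0.031). Genes of synaptic vesicles and SNAREs had 5 of 32 at the criterion as lower, and none changed (median -0.097). The count was 3 without FIDch replicate 4, where 2 passed the test (median -0.052), and with library size alone 3 met it. Syn1, synapsin I, which tethers vesicles, had a log2 fold change of -0.23 ± 0.054 and an adjusted p of 0.058.

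Acetylcholine is made from choline, and of 17 cholinergic receptors and enzymes 5 met the criterion, all lower, with a median of -0.195. That median was -0.09 without FIDch replicate 4, where 3 met it as lower and 1 as higher and 3 passed the test as lower. Chrna4, a nicotinic receptor subunit, was at 30.4, 23.9, 20.5 and 24.2 CPM in FID and at 14.9, 15.8, 16.3 and 12.7 CPM in FIDch. No FIDch library reached the lowest FID library (-0.73 ± 0.12, adjusted p = 0.014). Its partner subunit Chrna5 had a change of -0.87 ± 0.20 that did not pass (adjusted p = 0.051), as did the muscarinic receptor Chrm3 (-0.23 ± 0.061, adjusted p = 0.079). Slc5a7, the choline transporter of cholinergic endings, had a log2 fold change of 0.39 (adjusted p = 0.60), and Ache, acetylcholinesterase, of -0.10 (adjusted p = 0.30). Chrna4 overlaps Col20a1 in RefSeq's annotation.

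Of 18 receptors and enzymes for serotonin, dopamine and histamine, 6 met the criterion as lower and 2 as higher, with a median of -0.269 and of -0.193 without FIDch replicate 4. Htr2c, a serotonin receptor that couples to phospholipase C, was at 130, 140, 101 and 107 CPM in FID and at 71.1, 85.3, 83.8 and 53.4 CPM in FIDch (-0.70 ± 0.14, adjusted p = 0.034). Hrh3, the presynaptic histamine receptor, was at 65.5 to 68.5 CPM in FID and at 49.9, 53.0, 55.4 and 40.2 CPM in FIDch (-0.45 ± 0.085, adjusted p = 0.025). Both fell in all FIDch libraries compared to FID. Among 27 plasticity kinases and phosphatases, the protein kinase C Prkcb fell (-0.36 ± 0.057, adjusted p = 0.011). Camkk1, a kinase upstream of other calcium-dependent kinases, rose by 0.24 ± 0.053 (adjusted p = 0.046).

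Of 26 neuropeptide genes, 5 met the criterion as higher and 2 as lower, beside 5.59% and 7.07% of all genes tested. Pdyn and Penk rose and none fell (median -0.006). Leaving out FIDch replicate 4, 5 met it as higher and 6 as lower, and 3 passed as higher (median 0.028). Penk, which encodes the enkephalin precursor, was at 22.8, 21.0, 24.2 and 21.1 CPM in FID and at 29.0, 26.1, 28.3 and 31.8 CPM in FIDch (0.37 ± 0.075, adjusted p = 0.033). Neurotrophins and their receptors had 3 of 12 genes at the criterion in each direction (median 0.014, and 0.124 without FIDch replicate 4). Sort1, sortilin, which sorts neurotrophin precursors, fell from 1198 to 1272 CPM to 1034, 1041, 1033 and 850 CPM (-0.32 ± 0.064, adjusted p = 0.030). Bdnf, the brain-derived neurotrophic factor, was at 40.4, 38.6, 44.2 and 49.6 CPM in FID and at 51.3, 54.7, 43.6 and 52.3 CPM in FIDch. Its groups overlapped, and its change of 0.22 ± 0.090 did not pass (adjusted p = 0.23).

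Among 30 activity-induced immediate early genes, 4 met the criterion as lower and Bdnf alone as higher, beside 7.07% and 5.59% of all genes tested. The list's median was -0.141. Ier2 fell from 8.84, 10.9, 11.2 and 10.3 CPM to 5.77, 6.73, 7.89 and 7.59 CPM (-0.56 ± 0.12, adjusted p = 0.038), though not with library size alone as the scaling. Fos was at 19.1, 32.7, 14.2 and 18.01 CPM in FID and at 9.42, 11.3, 15.3 and 16.2 CPM in FIDch, which overlapped (-0.69 ± 0.25, adjusted p = 0.17). Without FIDch replicate 4, 9 of the 30 met the criterion as lower and 5 passed the test as lower.

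**Figure D4:**
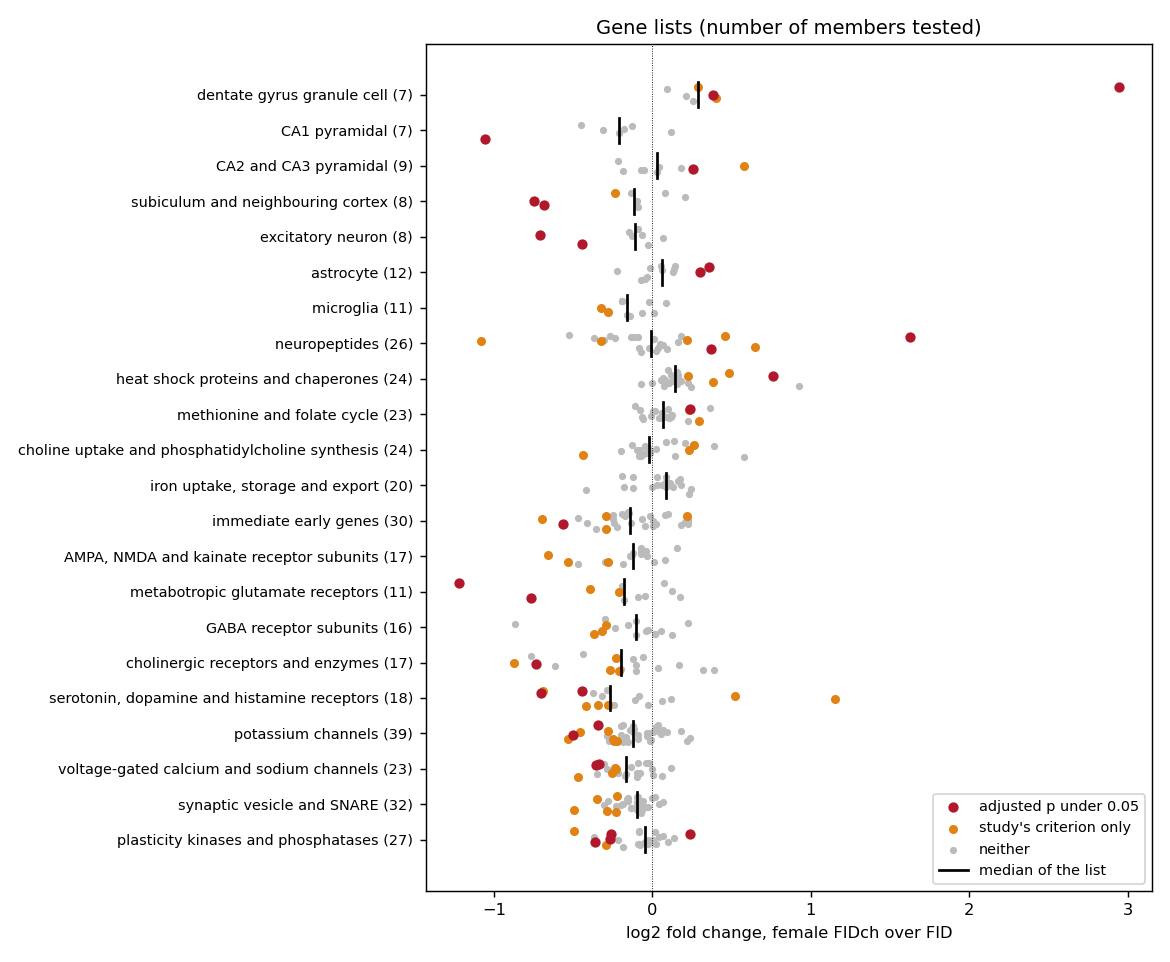
Log2 fold changes of female FIDch compared to FID on the x axis for the tested members of 22 gene lists, 1 list per line of the y axis with its number of members, dots coloured by the test passed and a black bar at the median. The dentate gyrus list has the highest median shown, 0.286, and that of serotonin, dopamine and histamine receptors the lowest, -0.269.

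Of all genes tested, 2.28% changed and 12.7% met the criterion, 5.59% as higher and 7.07% as lower. Beside these shares stand genes of the pathways in which iron and choline themselves take part. None of 20 tested genes for iron uptake, storage and export met the criterion (median 0.085), and at library size alone 2 did as higher. Tfrc, the transferrin receptor, was at 148, 156, 149 and 157 CPM in FID and at 190, 166, 175 and 159 CPM in FIDch, a difference of 0.17 ± 0.058 that did not pass (adjusted p = 0.15). Tf, transferrin, was at 0.18 ± 0.055 (adjusted p = 0.12). The groups of both genes did not overlap, but their differences stayed under the fold limit. Without FIDch replicate 4, Tfrc (0.21, adjusted p = 0.029) and Ncoa4, the receptor for the breakdown of ferritin (0.16, adjusted p = 0.034), passed the test as higher. Of 24 genes for choline uptake and phosphatidylcholine synthesis 2 met the criterion as higher and 1 as lower, and none changed (median -0.02, and 1 passed as higher without FIDch replicate 4). Pemt, which makes phosphatidylcholine by methylation, was at 3.10 to 4.32 CPM in FID and at 2.50 to 3.04 CPM in FIDch (-0.44 ± 0.16, adjusted p = 0.17). Chka, choline kinase alpha, was at 0.26 ± 0.076 (adjusted p = 0.10).

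In the methionine and folate cycle, 3 of 23 genes met the criterion, all higher, with a median of 0.071, and 1 met it as lower without FIDch replicate 4. Ahcyl2, a relative of the enzyme that clears S-adenosylhomocysteine, rose from 185, 188, 198 and 204 CPM to 246, 225, 221 and 225 CPM (0.24 ± 0.050, adjusted p = 0.035). Of 18 writers, erasers and readers of DNA methylation 1 met the criterion and none changed, the methyltransferase Dnmt3a at -0.22 ± 0.10 (adjusted p = 0.27). Of 41 histone lysine methylation enzymes 1 met it in each direction and none changed. Their medians were 0.007 and 0.019, and the H3K9 methyltransferase Setdb1 had 47.6 to 48.7 CPM in FID and 51.5 to 56.1 CPM in FIDch (0.18 ± 0.048, adjusted p = 0.078).

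The next lists stand beside the 5.59% of all genes tested that met the criterion as higher and the 7.07% as lower. Of 24 heat shock proteins and chaperones 4 met the criterion, all higher (median 0.146), and 6 did with library size alone as the scaling. Cryab, alpha-B crystallin, a small heat shock protein, was at 25.5, 25, 28.8 and 26.7 CPM in FID and at 60.1, 39.8, 37.0 and 43.1 CPM in FIDch (0.76 ± 0.13, adjusted p = 0.017). It overlaps Hspb2 in RefSeq's annotation. Of 17 glucocorticoid receptor and target genes 4 met the criterion as higher and 1 as lower and none changed (median 0.197). With library size alone 5 of them met it as higher and none as lower. The clock repressor Nfil3 rose from 6.07 to 7.50 CPM to 9.07 to 11.3 CPM (0.59 ± 0.11, adjusted p = 0.024), 1 of 21 clock genes that changed (1 higher and 2 lower without FIDch replicate 4). Among the remaining lists, Ndrg1 (hypoxia, 0.26 ± 0.057, adjusted p = 0.041), Sesn1 (sestrin 1 of the mTOR pathway, 0.27 ± 0.057, adjusted p = 0.036) and Smad3 (TGF-beta signalling, 0.30 ± 0.058, adjusted p = 0.027) rose.

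Of 71 ribosomal protein entries, 8 met the criterion as higher and 2 as lower (median 0.073), beside 5.59% and 7.07% of all genes tested. Without FIDch replicate 4 the counts were 7 and 4 (median 0.013), and with library size alone as the scaling 10 and 2. Of 67 nuclear-encoded respiratory chain genes 1 met it in each direction (median 0.034), and without that library 1 as lower alone (median 0.007). Of the 13 mitochondrially encoded genes Mt-nd4l, a subunit of complex I, fell by 0.36 ± 0.072 (adjusted p = 0.029), with a median of -0.057 over the 13. Once FIDch replicate 4 was left out, 5 of the 13 had an adjusted p under 0.05, all lower, with a median of -0.121. The 13 genes together took 72300 to 74100 CPM in FID and 65100, 68900, 69800 and 81700 CPM in FIDch, with FIDch replicate 4 the high one. Of 12 genes of oestrogen, thyroid and sex hormone response 4 met the criterion as lower, and Gper1, the membrane oestrogen receptor, fell by 0.98 ± 0.20 (adjusted p = 0.031) at 2.14 to 2.43 CPM in FID and 0.940 to 1.46 CPM in FIDch. The study's networks name or centre on Bmp3 (-0.18 ± 0.13, adjusted p = 0.52), Tnks (-0.24 ± 0.12, adjusted p = 0.35), Ireb2 (-0.12 ± 0.079, adjusted p = 0.45) and App (-0.07 ± 0.040, adjusted p = 0.39), none of which passed the test in these females.

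Whether choline went with the same differences in iron-sufficient females was asked of ISch compared to IS, which shares no library with FIDch and FID. There 368 of 14466 genes (2.54%) changed, 219 (1.51%) higher and 149 (1.03%) lower, and 10.3% met the criterion, 5.14% as higher and 5.15% as lower. Of the genes tested in both comparisons, 62.3% had the same sign, and of the 327 changed in FIDch compared to FID 286 (87.5%) did. Of these 327, 68 also changed in ISch compared to IS, all 68 in the same direction, which is 20.8% of the genes changed here and 18.7% of the 364 changed there. At the criterion, 142 of the 327 met it there with the same sign and 5 with the opposite one.

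The leading genes had values of the same sign in both. Dsp went from a mean of 1.88 CPM in IS to 13.7 CPM in ISch (2.87, adjusted p = 2.7e-05), Ephx2 from 1.15 to 12.4 CPM (3.41, adjusted p = 5.9e-05) and Pdyn from 62.4 to 175 CPM (1.49, adjusted p = 0.00042). Nqo2 went from 7.94 to 2.60 CPM (-1.61, adjusted p = 0.0011) and Fbln2 from 47.7 to 29.5 CPM (-0.70, adjusted p = 0.010). Chchd4, at 18.4 and 13.8 CPM, was at -0.41 (adjusted p = 0.31), and Sez6 at -0.17 (adjusted p = 0.052). In the granule cell list all 7 genes met the criterion as higher in ISch compared to IS, with a median of 0.494. Of the 30 immediate early genes 15 met the criterion as higher and none as lower there (median 0.262), and the difference between the counts was not tested.

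The difference of the 2 choline effects, tested over the 16 female libraries, passed for 1 of 14975 genes (0.00668%) by edgeR's quasi-likelihood test, with 1375 at an unadjusted p under 0.05, and for 49 by the likelihood ratio test. The gene was AABR07001512.1, an entry without a symbol, named after its values were seen. It was at 1.87, 2.09, 1.37 and 1.53 CPM in FID and at 0.0393, 0, 0.0887 and 0.0463 CPM in FIDch, where each library had fewer counts than the 3 that a count of 0 allows. In IS it was at 1.18 to 2.07 CPM and in ISch at 0.435 to 0.832 CPM. The difference of the log2 fold changes was -3.98 (adjusted p = 0.029), a fitted value that depends on the prior count. By the smallest unadjusted p of this difference, Tspan18, a tetraspanin, rose in FIDch compared to FID (0.58 ± 0.11, adjusted p = 0.029) and was at -0.34 in ISch compared to IS (adjusted p = 0.19). Gsn, gelsolin, which cuts actin filaments, was at 136, 158, 163 and 138 CPM in FID and at 106, 124, 113 and 124 CPM in FIDch (-0.35 ± 0.075, adjusted p = 0.038), with means of 99.0 CPM in IS and 118 CPM in ISch.

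In males the comparison of FIDch with FID had 179 of 13945 genes changed (1.28%), 61 (0.437%) higher and 118 (0.846%) lower, at 3515806 to 9511611 counts per library. Of the genes tested in both sexes 48.8% had the same sign. Of 316 genes changed in the females 137 (43.4%) had the same sign in the males, and 5 changed in both, 1.58% of those changed in females and 3.07% of the 163 changed in males. Prpf3, a splicing factor, rose in both (0.34 and 0.35). The other 4 changed in opposite directions, namely Rps10l1 (-0.84 in females and 0.98 in males), Mfge8 (-0.29 and 0.40), Basp1 (-0.37 and 0.37) and Pkia (0.22 and -0.30). Mfge8 encodes a secreted bridge for phagocytosis, Basp1 a protein of growth cones and Pkia an inhibitor of protein kinase A, while Rps10l1 may share reads with copies of a ribosomal protein gene.

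The difference between the sexes was tested in 1 model of 16 libraries and passed for 436 of 15143 genes (2.88%), among them 150 of the 334 genes changed in females. Dsp had a log2 fold change of 0.48 in males (adjusted p = 0.45), Pdyn of 0.20 (adjusted p = 0.50) and Ephx2 of 0.89 (adjusted p = 0.43). Chchd4 had 0.42 in males (adjusted p = 0.09), opposite in sign to the females, and Fbln2 had 0.54 (adjusted p = 0.063). The differences in log2 fold change, female minus male, were 2.46 for Dsp, 1.40 for Pdyn, 2.91 for Ephx2, -1.56 for Chchd4 and -1.29 for Fbln2. All 5 passed the test of the difference, but all were picked by their small p in females. Pdyn, Chchd4 and Fbln2 were also picked by the smallest p of this difference, so that their passing was fixed by the choice. Since the sexes were sequenced in different batches, at different depths, sex and batch cannot be told apart here.

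**Figure D5:**
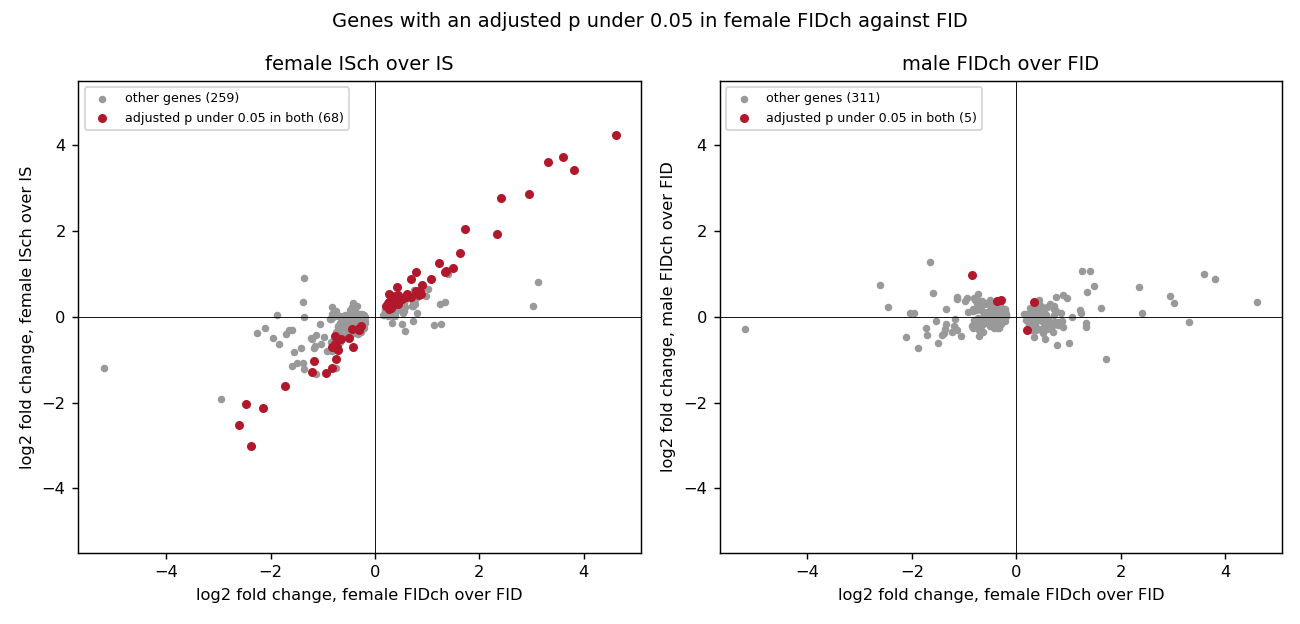
Log2 fold changes of female FIDch compared to FID on the x axis against those of female ISch compared to IS and of male FIDch compared to FID on the y axes, for the genes that changed in female FIDch. Of these genes, 87.5% have the same sign in ISch females and 43.4% in males.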

How the data were processed

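RNA of the hippocampus was made into TruSeq RNA v2 libraries by the authors, and whole-number gene counts were deposited, with no normalization. The submitters' processing notes name FastQC, Trimmomatic, HISAT2, Subread's featureCounts and the build Rnor_6.0. Strand setting and treatment of reads with several matches are not given in the sources used here, and both bear on overlapping genes and near-identical copies. By RefSeq's annotation another gene overlaps Pdyn, Prdx6, Pld5, Snrpc, Ccdc82, Ybx1-ps3, Sez6, Lrrc31, Rplp2, Nrn1, Tnc, Ndst4 and Tshz2. The same holds for Grm8, Grin3a, Cacna2d2, Kcnk3, Syn1, Chrna5, Chrm3, Htr2c, Prkcb, Gper1, App, Cx3cr1, Tf, Ncoa4, Pemt, Ahcyl2, Lingo1, Abcg2 and Fam107a. The deposited counts covered 32883 entries, and 2799 symbols belonged to more than 1 entry. Counts were filtered by expression (filterByExpr), scaled by TMM and tested, FIDch with FID, by edgeR's quasi-likelihood test (edgeR 4.0.16, R 4.3.3) on the 8 libraries. SE is the log2 fold change divided by the root of F. CPM values are TMM-normalized over the 16 female libraries. At 3 counts, the limit that a count of 0 allows at 95%, a library reads 0.113 to 0.157 CPM, which covers counting error only. ISch with IS, male FIDch with FID and both differences of effects were fitted likewise.

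The comparison and all gene lists were chosen with earlier results of these data known. Genes were named by rule from those with 1 entry per symbol. The rule took the 12 smallest p-values per direction and the 6 largest fold changes per direction without overlap of the groups, at 10 or more normalized counts on average. It also took the 3 smallest p-values in each list and, per direction, in each difference of effects, with Bmp3, Tnks, Ireb2, Bdnf and App added. Not every gene so named is printed, and some are not reported here. Slc17a7, Slc5a7, Ache, Nrn1, Serpinb6a, Tmem204, the genes changed in both sexes, AABR07001512.1 and all genes described only in the closing observations were chosen after their values were seen. The alternatives were DESeq2 1.42.0, edgeR's likelihood ratio test, other scalings and filters, all 4 female groups in 1 fit, a replicate block and the omission of each library. The scripts were tested on simulated counts. Replicates did not agree within sampling noise, so each library counted once. Promoters and neighbouring genes came from RefSeq's GRCr8, which matched 12871 of the tested genes, and no Rnor_6.0 coordinates are given.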

Additional observations from a re-analysis of the deposited data

Results flagged for a closer look

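In groups of 4, 1 value lay far from the other 3, by a gap over Dixon's 95% critical value, in 21 of 238 groups examined (8.82%), and chance flags about 1 in 20 groups. In 8 of these the far library was FIDch replicate 4. It was high for Hbb (66.1 CPM), Nxph3 (15.4 CPM) and the summed blood markers (310 CPM), and low for Ndrg1 (115 CPM), Sort1 (850 CPM), Tnks (51.2 CPM), the summed CA2 and CA3 markers (646 CPM) and the second principal component (-23.7). In the other FIDch libraries, the far values were those of Ahcyl2 (246 CPM, replicate 1), Rplp2 (23.1 CPM, replicate 3) and Sparcl1 (3050 CPM, replicate 3). In FID they were those of Bmp3 (41.9 CPM, replicate 1), Decr1 (12.9 CPM, replicate 1), Prox1 (120 CPM, replicate 1), Lcat (10.9 CPM, replicate 2), Ndrg1 (101 CPM, replicate 2), Chrm3 (83.4 CPM, replicate 3), Tmem204 (12.5 CPM, replicate 3), Ttr (14.5 CPM, replicate 3), the summed choroid plexus markers (20.2 CPM, replicate 3) and Kcnk3 (8.26 CPM, replicate 4). For Prox1, Sparcl1 and Chrm3 the whole range of the 4 values was small beside their level.

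The effect of FIDch compared to FID differed between the sexes for 436 genes by the test of the difference, 49 of them among the 110 genes examined one by one. Many of the 110 were picked by their p in females or in this difference, so their share is not that of all genes. Values below are log2 fold changes of females minus those of males, and the sexes were sequenced in different batches. They were positive for Ephx2 (2.91), Pld5 (2.69), LOC100362965 (2.67), Dsp (2.46), Pex11a (1.61), Pdyn (1.4), Gsta4 (1.1), Bphl (1.04), Ift140 (0.97), Lcat (0.94), Rnd3 (0.89), Snrpc (0.88), Tspan18 (0.84), Aqp4 (0.55), Pkia (0.5), Prdx6 (0.45), Prox1 (0.45), Stxbp6 (0.42), Tfrc (0.41) and Ahcyl2 (0.34). Among receptors, channels and other neuronal genes they were negative for Gper1 (-1.35), Chrna4 (-0.73), Tbr1 (-0.64), Fezf2 (-0.63), Hrh3 (-0.57), Cacna2d2 (-0.52), Lingo1 (-0.52), Fgf11 (-0.51), Ephb6 (-0.5), Sez6 (-0.46), Slc32a1 (-0.44), Nxph3 (-2.08) and Basp1 (-0.76). Among genes of vessels and matrix they were negative for Ccn1 (-3.37), Edn1 (-2.16), Fbln2 (-1.29) and Fn1 (-1.08). The remaining negative differences were those of AABR07001512.1 (-4.85), Lrrc31 (-2.75), Il17rb (-2.13), Rps10l1 (-1.84), Ybx1-ps3 (-1.65), Chchd4 (-1.56), Atp2a3 (-1), Ccdc82 (-0.96), Ier2 (-0.9), Pxmp4 (-0.77), Mfge8 (-0.71) and Gsn (-0.65).

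The effect of choline differed between FID and IS females for 1 gene, AABR07001512.1, with a difference in log2 fold change of -3.98.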

How the results depend on the processing

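The number of genes at the criterion, 1859, stayed between 1633 and 2245 under all alternatives. With no limit on the fold change, 2648 genes had an unadjusted p under 0.05 by edgeR's quasi-likelihood test. The 334 genes with an adjusted p under 0.05 became 751 by edgeR's likelihood ratio test, 816 by DESeq2 and 569 in 1 fit of the 4 female groups, the first 2 holding all 334. With 1 library left out they ranged from 89 (FID replicate 2) to 775 (FIDch replicate 4), and were 105, 156 and 124 without FID replicates 1, 3 and 4 and 132 and 204 without FIDch replicates 1 and 2. The cause was not tested, though each omission leaves fewer samples. Of 89 changed genes named, 37 kept an adjusted p under 0.05 in all 16 alternatives, among them Dsp, Pdyn, Ephx2, Ift140, Chchd4, Edn1, Prox1 and Chrna4. Library size alone lost 6 (Tle4, Slc32a1, Gsn, Basp1, Tshz2 and Ier2). RLE size factors in place of TMM in edgeR's fit lost 2 (Camkk1 and Nrn1), while the DESeq2 test kept all 89. Hbb, not changed, turned its sign when single libraries were left out, between -0.5 and 0.07. The 436 genes with a sex difference became 733 by the likelihood ratio test and 209 to 697 with 1 library left out (lowest without FID replicate 3, highest without FIDch replicate 4). The 1 gene whose choline effect differed between FID and IS became 49 by the likelihood ratio test and 0 to 25 with 1 library left out.

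Replicate numbers were shared between the groups, but same-numbered libraries did not deviate together (correlations of 0.008, 0.072, -0.037 and -0.001), so the numbers were not taken as pairs. With the replicate block, 197 genes had an adjusted p under 0.05 (177 shared with the 334), 148 a sex difference and 0 a choline effect that differed between FID and IS.

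Only 4 rats per group were available, and the FIDch group held a library that stood apart. Expression near 1 CPM rests on some 20 counts per library.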

Other observations

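Some changed genes that were on no list above are described here. They were picked after their values were seen, so they say nothing of other genes with like functions. The first 6 are known from neurons of the cortex, among other cells, and fell. Fezf2, the transcription factor that sets the fate of deep-layer projection neurons, was at 38.0, 45.5, 40.3 and 38.5 CPM in FID and at 26.2, 23.1, 26.2 and 29.8 CPM in FIDch (-0.63 ± 0.085, edgeR adjusted p = 0.0056). Nxph3, neurexophilin 3, a ligand of neurexins, was at 37.3, 26.7, 15.9 and 31.5 CPM and at 4.55, 4.70, 4.48 and 15.4 CPM (-1.96 ± 0.40, adjusted p = 0.032). Cplx3, a complexin, was at 5.396, 2.46, 2.58 and 3.71 CPM and at 1.14, 0.940, 1.77 and 1.67 CPM (-1.38 ± 0.30, adjusted p = 0.040). The groups were apart in all 3. Etv1, a transcription factor, fell from 124 to 148 CPM to 94.99 to 107 CPM (-0.42 ± 0.066, adjusted p = 0.012), and Lingo1, a membrane protein that restrains myelination and axon growth, from 243 to 260 CPM to 174 to 210 CPM (-0.41 ± 0.063, adjusted p = 0.011). Tle4, a corepressor, fell by 0.25 (adjusted p = 0.042). Beside them, the markers of the subiculum and neighbouring cortex summed to 217 to 236 CPM in FID and to 180 to 200 CPM in FIDch. Most of that difference came from Fn1 and Tshz2, and the part of neighbouring cortex in the tissue was not tested.

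The next 6 genes rose. Lcat, the enzyme that esterifies cholesterol on lipoproteins, was at 7.99, 10.9, 8.48 and 8.22 CPM in FID and at 16.8, 17.8, 13.7 and 13.2 CPM in FIDch (0.79 ± 0.13, adjusted p = 0.015). Pex11a, a protein of peroxisome division, was at 6.21, 5.28, 5.21 and 6.57 CPM and at 15.8, 11.6, 8.82 and 11.1 CPM (1.01 ± 0.17, adjusted p = 0.014). Abcg2, an efflux transporter of brain capillaries, went from 4.14 to 5.59 CPM to 6.55, 9.29, 14.4 and 17.3 CPM (1.24 ± 0.26, adjusted p = 0.037). All FIDch values of these genes lay above the FID values. Decr1, of mitochondrial fatty acid oxidation (0.43 ± 0.088, adjusted p = 0.033), and Phyh, of peroxisomal alpha-oxidation (0.26, adjusted p = 0.044), rose too. Fam107a, an actin-binding protein induced by stress, rose from 559, 547, 578 and 668 CPM to 863, 687, 754 and 882 CPM (0.44, adjusted p = 0.030).

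The smallest p-value of all genes belonged to LOC100362965, an entry known by a locus name alone. It was at 3.65, 3.35, 3.27 and 3.14 CPM in FID and at 25.7, 29.0, 26.6 and 28.2 CPM in FIDch (3.02 ± 0.086, adjusted p = 1.9e-08). In IS it was at 33.1, 3.40, 25.9 and 28.2 CPM, so that 1 IS library lay at the FID level and 3 at the FIDch level, and in ISch it was at 29.2, 23.7, 27.7 and 26.6 CPM. The male means were 17.9 CPM in FID and 22.7 CPM in FIDch.

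The lists not described so far are given beside the 2.28% of all genes tested that changed. Of 9 striatal markers Penk alone changed (median -0.181), and of 9 thalamic markers Slc17a6 alone (median -0.112). None changed among 5 ependymal markers (median 0.303, and 0.086 without FIDch replicate 4), 25 genes of interferon response and antigen presentation (median 0.087, and 0.006 without that library), 20 of amyloid precursor processing and tau (median 0.012) and 17 of adult neurogenesis (median -0.122). Without FIDch replicate 4, 1 striatal, 1 interferon response and 2 neurogenesis genes had an adjusted p under 0.05 as lower.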
